A study of Mus musculus with 12 samples.

Results

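The genes described here are 8 long noncoding RNAs of mouse, 2 that stay in the nucleus (Malat1, Neat1) and 6 that host small nucleolar RNAs (Gas5, Snhg1, Snhg5, Snhg6, Snhg8, Snhg12), measured in alveolar macrophages after lung transplantation. They were taken from a list of names and matched to the deposited table by Ensembl gene identifier. A row was found for 6 of the 8 among 43430 genes, and all 6 passed the filter on low values (4 or more libraries with an RPKM of 1 or above). Snhg1 and Snhg8 are not analysed here. RPKM stands for reads per kilobase of gene length and per library depth. Each of the 6 was above 1 RPKM in all 12 libraries.

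Alveolar macrophages are the resident phagocytes of the air spaces. Their polyadenylated RNA was sequenced in a murine lung transplant model, in 3 groups of 4 libraries: naive lungs, and lungs sampled 2 h and 24 h after reperfusion, when blood enters the grafted lung again. Every library is labelled male, 14 weeks old and Cx3cr1gfp/+B6, a genotype that carries a fluorescent reporter in place of a copy of the Cx3cr1 gene, so no group lacks it. Allo appears in the titles of the reperfusion libraries without an explanation, and the labels do not say whether the cells came from the donor or the recipient.

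Long noncoding RNAs are transcribed and processed much like messenger RNAs but are not known for a protein product. Malat1 is abundant in nuclear speckles, bodies rich in splicing factors, and Neat1 is the scaffold around which paraspeckles form. The host genes carry small nucleolar RNAs (snoRNAs) in their introns. Once spliced, the introns release snoRNAs that guide the modification of ribosomal and other RNA, while the spliced host RNA is exported and, in Gas5 and others, degraded by nonsense-mediated decay when ribosomes read it. Gas5 starts with a terminal oligopyrimidine tract (5′ TOP), a C followed by further pyrimidines, which couples the translation and decay of an RNA to growth signalling.

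The first 40 bases of annotated transcripts of the 6 RNAs are shown because some transcripts of each host with values open with such a run. They are GENCODE transcripts of mm10 (GRCm38), written 5′ to 3′ on the strand of the gene, with DNA letters. Capitals mark a run that begins with C and holds at least 5 pyrimidines. For the hosts, the transcript shown is one that has such a run.
Gas5: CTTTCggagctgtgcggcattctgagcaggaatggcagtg
Snhg5: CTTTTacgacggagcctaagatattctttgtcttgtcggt
Snhg6: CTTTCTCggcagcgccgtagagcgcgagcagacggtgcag
Snhg12: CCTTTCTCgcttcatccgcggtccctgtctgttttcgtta
Malat1: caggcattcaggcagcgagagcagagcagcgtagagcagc
Neat1: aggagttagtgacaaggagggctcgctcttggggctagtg

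The run was present at the start of 5 of 25 annotated Gas5 transcripts, 1 of 6 of Snhg5, 1 of 5 of Snhg6 and 3 of 10 of Snhg12. Of the hosts not analysed here, Snhg1 had it in 0 of 18 and Snhg8 in 1 of 3, so the run is not at an annotated start of every host. A separate promoter entry of Snhg1 has a run of 9 pyrimidines at position 5 relative to its start. That run begins with T, so it does not meet the rule used for the capitals above. Pyrimidine runs of at least 9 were found in 13.33% of promoters. Whether Snhg1 RNA opens with a run that begins with C was not tested. The run that begins with C was at the start of 0 of 4 transcripts of Malat1 and 0 of 4 of Neat1. Among all annotated lncRNA genes, 384 of 13374 (2.871%) had at least 1 transcript with such a start, against 8.514% of protein-coding genes. A gene with more annotated transcripts has more chances to hold one, and the match describes letters only.

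The nuclear pair have a different shared feature at the other end. Both RNAs are cut at their 3′ end in a way that leaves a stretch of A folded back on U-rich elements as a triple helix. The 80 bases up to the end of the shared A-rich stretch are shown, with capitals for stretches of at least 10 bases found in both, in the same order.
Malat1: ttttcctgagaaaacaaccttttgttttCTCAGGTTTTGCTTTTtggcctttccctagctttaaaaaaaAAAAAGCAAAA
Neat1: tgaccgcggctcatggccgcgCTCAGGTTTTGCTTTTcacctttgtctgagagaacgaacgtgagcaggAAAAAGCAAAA

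They share a U-rich stretch of 16 bases and an A-rich stretch of 11 bases. In Neat1 the sequence is at bases 20692 to 20771 of a transcript of 20771 bases. In Malat1 it is at bases 6612 to 6691 of 6983, with 292 annotated bases after it. The A-rich stretch, AAAAAGCAAAA on the transcript strand, was found in the last 400 bases of the longest transcript of 24 of 13374 lncRNA genes (0.179%).

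Malat1 lies on the minus strand of chromosome 19 at 5795690 to 5802672 and Neat1 on the same strand at 5824708 to 5845478. The hosts lie on chromosome 1 (Gas5, 161034422 to 161038539, plus strand, and Snhg6, 9941959 to 9944118, minus strand), chromosome 9 (Snhg5, 88521050 to 88522929, minus strand) and chromosome 4 (Snhg12, 132308623 to 132311024, plus strand). All coordinates are of mm10. The annotation types Malat1, Neat1, Snhg6 and Snhg12 as lincRNA, and Gas5 and Snhg5 as processed transcripts.

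Library totals recovered from the steps of the RPKM values ranged from 6112586 to 11997945 reads. The alveolar macrophage markers Marco, Siglecf, Chil3, Ear2, Pparg, Itgax, Fabp4, Car4, Krt79, Mrc1, Cidec and Plet1 were detected in every group, with summed levels of 11402 to 11788 RPKM in naive, 7935 to 9245 RPKM at 2 h and 9539 to 11394 RPKM at 24 h. These sums are mostly Chil3. Of the 12 markers 2 rose and 4 fell at 2 h, and at 24 h 2 rose, among them Marco (94.9 ± 10.6 to 398 ± 25.8 RPKM, SD, n = 4), and 8 fell, among them Siglecf (58.3 ± 3.15 to 27.1 ± 7.27 RPKM). Of all genes tested 14.7% were higher and 22% lower at 2 h, and 25.3% higher and 20.6% lower at 24 h. Summed epithelial markers (4 genes) were at 65.6 to 70.7, 58.7 to 76.2 and 32.5 to 39.5 RPKM, and neutrophil markers (6 genes, with Ly6g at 0 in all naive and all 24 h libraries) at 15.5 to 21.8, 14.9 to 23.6 and 32.1 to 38.4 RPKM. At 24 h 1 of 4 epithelial markers fell, Epcam (42.5 ± 2.25 to 12.2 ± 2.91 RPKM), and 3 did not pass, and of 3 neutrophil markers tested S100a8 rose (10.2 ± 2.54 to 29.8 ± 2.74 RPKM) and Csf3r fell (6.51 ± 0.84 to 2.01 ± 0.55 RPKM). Lymphocyte markers (5 genes) were at 5.66 to 8.04, 1.80 to 3.90 and 0.60 to 1.84 RPKM, interstitial macrophage markers (5 genes) at 5.93 to 9.97, 2.53 to 5.11 and 3.17 to 8.62 RPKM, and monocyte markers (4 genes) at 1.79 to 2.38, 0.73 to 1.34 and 1.12 to 1.24 RPKM. Of 4 interstitial macrophage markers tested 3 fell at 2 h, and 3 fell and 1 rose at 24 h. The monocyte marker tested, Ccr2, fell at both times. Their part in the changes below was not tested, and in bulk RNA fewer cells of a type and less RNA per cell cannot be told apart. Both reperfusion groups stood apart from naive in H2-Ea-ps, annotated as an MHC class II pseudogene. It was at 0 to 0.184 RPKM in naive, 19.3 to 27.1 at 2 h and 1.48 to 5.20 at 24 h. The effect of time and any other difference between the groups, for example in the donor or recipient origin of the cells, cannot be told apart.

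The lengths behind the deposited values differ from the annotated exons (18528 bases against 3760 for Gas5, 9336 against 6983 for Malat1), so levels of different genes were compared as recovered reads per kilobase of annotated exons, scaled to the library total. On that scale the naive order was Malat1 at 321 ± 15.3 (SD, n = 4), Neat1 at 33.7 ± 6.47, Gas5 at 14.6 ± 1.09, Snhg6 at 7.23 ± 1.33, Snhg5 at 5.73 ± 1.27 and Snhg12 at 2.80 ± 0.46. Snhg6, at 5.83 to 8.99, and Snhg5, at 4.67 to 7.47, overlapped in naive, and no other neighbours in the order did. At 2 h the Neat1 libraries (9.07 to 31.1) overlapped those of Gas5 (12.4 to 17.8), and Snhg6 and Snhg5 overlapped again. At 24 h Snhg5, at 8.67 to 9.97, lay above Snhg6, at 6.40 to 8.22, in every library. Malat1 rested on 13274 to 25379 reads per library and Neat1 on 1867 to 7770, while Gas5 had 309 to 762, Snhg5 64 to 187, Snhg6 53 to 99 and Snhg12 35 to 97.

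**Figure D1:**
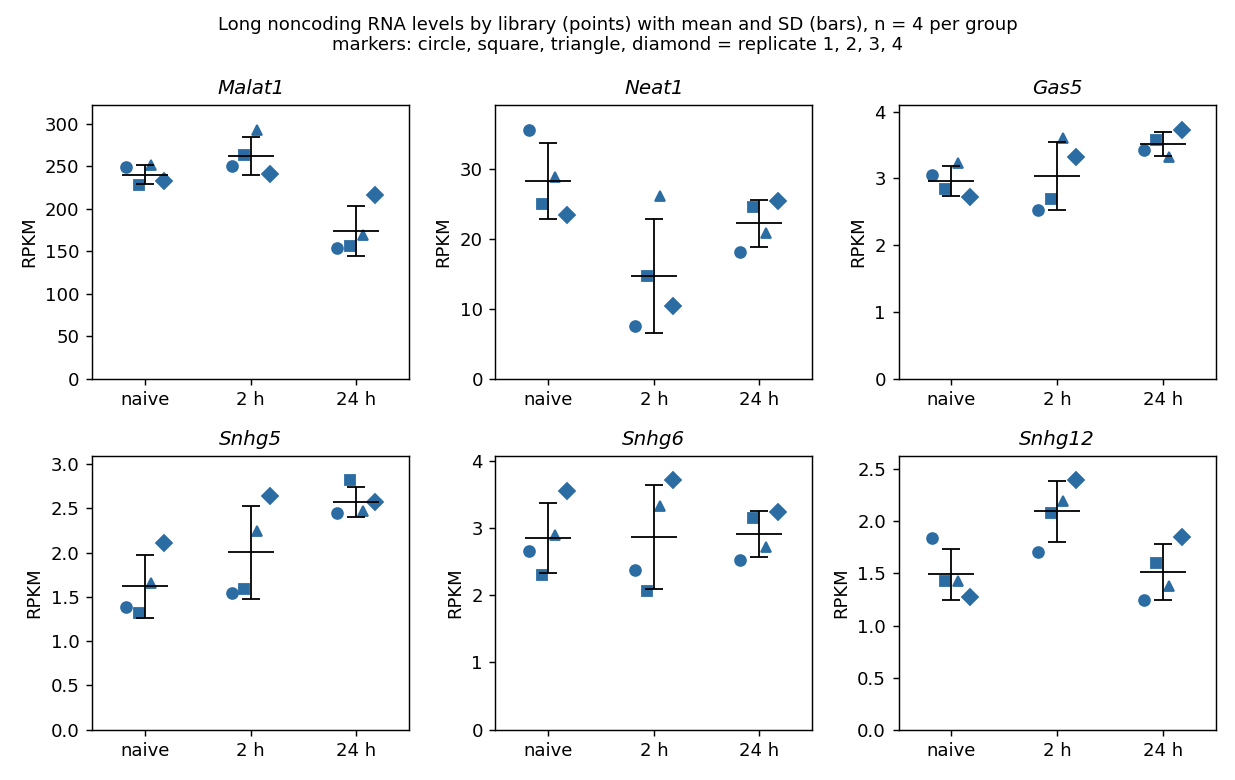
RPKM of the 6 long noncoding RNAs (vertical axes from 0) in each library of the naive, 2 h and 24 h groups (horizontal axes), with the mean and SD of each group as bars and the replicate numbers as marker shapes. Malat1 is lower at 24 h, Neat1 is lower at 2 h except in replicate 3, and Snhg5 is higher at 24 h than in every naive library.

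The 3 comparisons ask how these RNAs stood 2 h and 24 h after reperfusion against naive cells, and at 24 h against 2 h. At 2 h, Neat1 fell, Snhg12 rose and 4 of the 6 did not pass (limma on log2(RPKM + 1), p adjusted over 11419 genes, threshold 0.05). Of all genes tested 36.7% were called at 2 h, 14.7% higher and 22% lower, so 2 of 6 is near the background. At 24 h against naive, Malat1 fell and Snhg5 rose, 2 of 6 against a background of 45.9% (25.3% higher and 20.6% lower). From 2 h to 24 h, Malat1 and Snhg12 fell, 2 of 6 against a background of 52.5% (30.9% higher and 21.5% lower). The median log2 fold change of the 6 was 0.07, 0.02 and 0.10 in these comparisons, and that of all genes tested was -0.04, 0.00 and 0.05. In the last comparison the median of the 6 lies above 0 although 2 fell and 0 rose. The comparisons share libraries, so their values are given side by side and are not independent. With median-ratio scaling the 2 h calls over all genes were 2062 higher and 2043 lower, in place of 1675 and 2514.

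**Figure D2:**
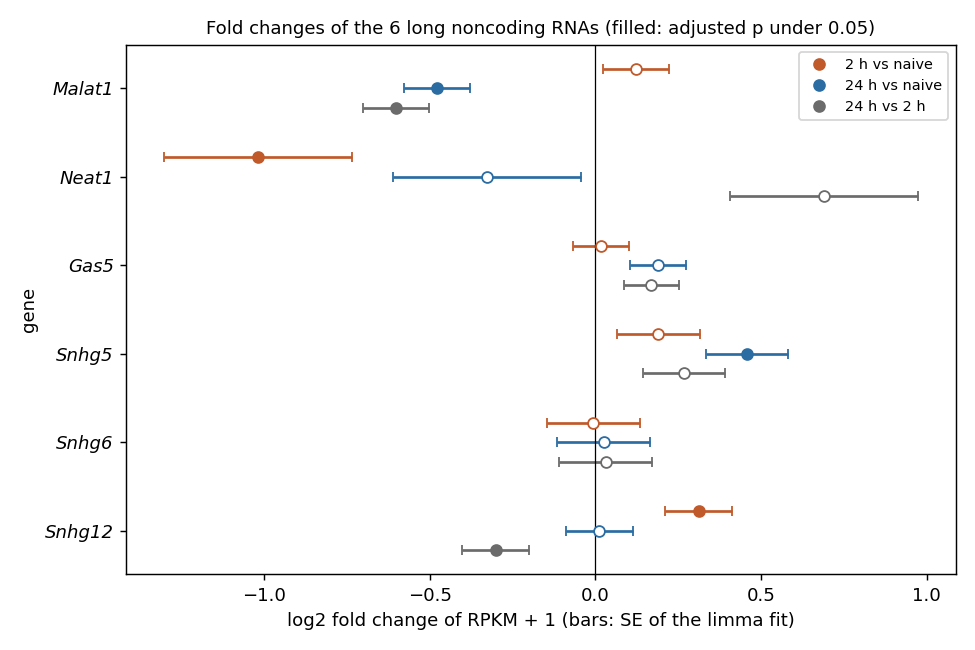
Fold changes on the log2(RPKM + 1) scale (horizontal axis) of the 6 RNAs (vertical axis) in the 3 comparisons (colours), with bars of 1 SE. Filled points passed at an adjusted p under 0.05: Neat1 and Snhg12 at 2 h, Malat1 and Snhg5 at 24 h against naive, and Malat1 and Snhg12 at 24 h against 2 h.

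Malat1, the nuclear speckle RNA, was lower at 24 h. In naive libraries it was at 249, 228, 251 and 233 RPKM, at 2 h at 251, 263, 293 and 241 RPKM, and at 24 h at 154, 156, 169 and 216 RPKM (replicates 1 to 4). All 4 libraries at 24 h lay below all naive and all 2 h libraries, while naive and 2 h overlapped. The mean fell from 240 ± 11.5 RPKM (SD, n = 4) to 174 ± 29.1 RPKM (SD, n = 4), 0.723 of the naive level (log2 fold change -0.48 ± 0.10, SE, limma adjusted p = 0.00209). Against 2 h, at 262 ± 22.5 RPKM (SD, n = 4), the log2 fold change was -0.60 (adjusted p = 0.000343). At 2 h against naive it was 0.12 (adjusted p = 0.364).

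Gm37376 is an annotated gene on the opposite strand inside Malat1 (19, 5801941 to 5802393). Whether reads were counted by strand is not given in the sources used here, so its reads and those of Malat1 cannot be told apart. Its level in naive was 450 ± 50.1 RPKM (SD, n = 4), with 435 ± 30.3 at 2 h and 321 ± 51.8 at 24 h. Against naive its log2 fold changes were -0.04 at 2 h, which did not pass (limma adjusted p = 0.78), and -0.49 at 24 h (adjusted p = 0.00303). The change was -0.45 between the time points (adjusted p = 0.00443).

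Neat1, the paraspeckle scaffold, was lower at 2 h in 3 of 4 libraries. Naive libraries were at 35.6, 25.03, 28.9 and 23.5 RPKM, 2 h libraries at 7.59, 14.7, 26.1 and 10.4 RPKM, and 24 h libraries at 18.1, 24.5, 20.9 and 25.4 RPKM. Replicate 3 at 2 h lay within the naive range, the other libraries lay below every naive library, and 24 h overlapped both. The mean fell from 28.2 ± 5.41 RPKM (SD, n = 4) to 14.7 ± 8.13 RPKM (SD, n = 4), 0.520 of the naive level (log2 fold change -1.02 ± 0.28, SE, limma adjusted p = 0.0156). The spread at 2 h was 55.4% of the mean, against 19.2% in naive and 15.3% at 24 h. Without 2 h replicate 3 the log2 fold change was -1.33, and over all fits that left out a library it ranged from -1.33 to -0.77, each past the threshold.

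At 24 h Neat1 was at 22.2 ± 3.39 RPKM (SD, n = 4). Its log2 fold change was -0.33 against naive (limma adjusted p = 0.376) and 0.69 against 2 h (adjusted p = 0.0599). The latter passed without 2 h replicate 3 (0.997, adjusted p = 0.00177), with a filter at 5 RPKM (adjusted p = 0.0484) and with voom on recovered reads (adjusted p = 0.0402). Adjusted p for it ranged from 0.00177 to 0.169 over all alternatives. Neat1 makes a short polyadenylated RNA and a long one from the same start, and a value per gene does not separate them.

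A coding neighbour on chromosome 19 was measured too. Frmd8, a gene for a FERM domain protein 4224 bases from Neat1 on the same strand, fell at 2 h (log2 fold change -0.43, limma adjusted p = 0.00288) and rose from 2 h to 24 h (0.35, adjusted p = 0.00556). Its naive level was 14.2 ± 0.49 RPKM (SD, n = 4), against 10.3 ± 1.21 at 2 h and 13.4 ± 1.46 at 24 h.

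Gas5, the host with the most annotated snoRNAs among the 6, did not pass in any comparison. It was at 3.05, 2.85, 3.23 and 2.73 RPKM in naive, 2.52, 2.70, 3.61 and 3.32 RPKM at 2 h, and 3.43, 3.58, 3.32 and 3.73 RPKM at 24 h. All 24 h libraries lay above all naive libraries, and the 2 h libraries overlapped both. The log2 fold change against naive was 0.02 at 2 h (limma adjusted p = 0.885) and 0.19 at 24 h (adjusted p = 0.0894), and it was 0.17 between the time points (adjusted p = 0.112). Fitted with naive and 24 h libraries alone, the 24 h difference passed (adjusted p = 0.0224), and without 2 h replicate 3 the difference between the time points passed (adjusted p = 0.0259). Zbtb37 overlaps Gas5 on the opposite strand, so reads in the overlap are uncertain.

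Snhg5, a host of 2 annotated snoRNAs, was higher at 24 h. It was at 1.39, 1.32, 1.66 and 2.11 RPKM in naive, 1.54, 1.59, 2.24 and 2.64 RPKM at 2 h, and 2.45, 2.81, 2.47 and 2.57 RPKM at 24 h. Every 24 h library was above every naive library, and 2 h overlapped both. It rose 1.59-fold, from 1.62 ± 0.36 RPKM (SD, n = 4) to 2.58 ± 0.17 RPKM (SD, n = 4) (log2 fold change 0.46 ± 0.12, SE, limma adjusted p = 0.0103). Its log2 fold change at 2 h against naive was 0.19 (limma adjusted p = 0.256). From 2 h to 24 h it was 0.27 (adjusted p = 0.0913, and 0.0213 without 2 h replicate 4).

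Snhg6, a host of 1 annotated snoRNA, differed by less than the spread between libraries in each comparison. It was at 2.66, 2.30, 2.90 and 3.55 RPKM in naive, 2.38, 2.06, 3.33 and 3.71 RPKM at 2 h, and 2.53, 3.15, 2.71 and 3.24 RPKM at 24 h. The 3 groups overlapped, with log2 fold changes of -0.01, 0.03 and 0.03 (limma adjusted p = 0.977, 0.899 and 0.863). It rested on 53 to 99 reads per library. Mcmdc2 overlaps it on the opposite strand.

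Snhg12, a host of 5 annotated snoRNA entries, with Snora16a entered more than once, was higher at 2 h. It was at 1.84, 1.43, 1.42 and 1.27 RPKM in naive, 1.71, 2.08, 2.20 and 2.39 RPKM at 2 h, and 1.24, 1.60, 1.38 and 1.85 RPKM at 24 h. Of the 4 libraries at 2 h, 3 lay above every naive and 24 h library, and replicate 1 lay within the ranges of naive and 24 h. The mean rose 1.40-fold, from 1.49 ± 0.25 RPKM (SD, n = 4) to 2.10 ± 0.29 RPKM (SD, n = 4) (log2 fold change 0.31 ± 0.10, SE, limma adjusted p = 0.0306), and was 1.52 ± 0.27 RPKM (SD, n = 4) at 24 h, below 2 h by a log2 fold change of -0.30 (adjusted p = 0.0262). Both calls are near the threshold. The 2 h call was lost in 8 of 22 alternatives, among them the fits without naive replicate 2, 3 or 4 and without 2 h replicate 2, 3 or 4, where the log2 fold change was between 0.27 and 0.31 (adjusted p up to 0.0806). The call between the time points was lost in 7 of 22, among them the fits without 2 h replicate 2, 3 or 4 and without 24 h replicate 1 or 3, with adjusted p up to 0.078.

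The annotation places 18 snoRNA entries inside the 6 RNAs, 10 of them in Gas5, 5 in Snhg12, 2 in Snhg5 and 1 in Snhg6. Snord80 in Gas5 and Snora16a in Snhg12 are each entered more than once, at overlapping positions. Of the 18 entries 16 had a row in the table, and those without a row are further entries of Snord80 and Snora16a. In any library 2 were above 0, in polyadenylated RNA that is not made to capture snoRNAs. Of the 18, 17 overlap annotated exons of their host. How reads shared with the host were counted was not tested, so a 0 does not show that a snoRNA is absent. Snord87, inside Snhg6, had 0 to 4 reads per library. Snora16a, a guide of pseudouridylation inside Snhg12 (4, 132309465 to 132309600), had 1, 0, 1 and 2 reads in naive, 6, 7, 10 and 5 reads at 2 h, and 5, 2, 3 and 2 reads at 24 h. All 2 h libraries lay above all naive libraries in RPKM, and it rose at 2 h (log2 fold change 1.80 ± 0.32, SE, limma adjusted p = 0.00138) and fell from 2 h to 24 h (-1.12, adjusted p = 0.0119). It overlaps annotated exons of Snhg12, so its reads can be those of the unspliced or spliced host, which cannot be told apart.

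Of the genes next to the hosts, Syncrip, an RNA-binding protein gene next to Snhg5, rose at 2 h (log2 fold change 0.22, limma adjusted p = 0.0272) and at 24 h (0.33, adjusted p = 0.00232). Sgk3, a kinase gene on a side of Snhg6, fell at both (-0.42 and -0.26), and Trnau1ap, 739 bases from Snhg12, passed at neither (0.04 and 0.21). Beside the locus of Snhg1, Slc3a2, a subunit of amino acid transporters 106 bases away, rose 2.14-fold at 2 h (limma adjusted p = 1.18e-05, log2 fold change 1.06). It was also higher at 24 h than in naive (0.37, adjusted p = 0.00516).

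Of 16 other snoRNA host lncRNAs listed, 8 passed the filter. At 2 h 2 rose and 0 fell, at 24 h against naive 0 rose and 2 fell, and at 24 h against 2 h 0 rose and 3 fell, with medians of -0.15, -0.15 and -0.12. Of all genes tested 14.7% were higher and 22% lower at 2 h. The shares were 25.3% and 20.6% at 24 h against naive, and 30.9% and 21.5% at 24 h against 2 h. Snhg15 rose 1.69-fold at 2 h, from 3.37 ± 0.51 RPKM (SD, n = 4) to 5.68 ± 0.90 RPKM (SD, n = 4, log2 fold change 0.61, limma adjusted p = 0.00198), and Snhg17 rose 1.90-fold (0.61, adjusted p = 0.00125). Both fell from 2 h to 24 h (-0.78 and -0.73), and neither passed at 24 h against naive (-0.17 and -0.12). Zfas1 and Epb41l4aos fell at 24 h against naive, by log2 fold changes of -0.35 (adjusted p = 0.00948) and -0.75 (adjusted p = 0.000504). The hosts included RNAs with their highest mean RPKM at 2 h (Snhg12, Snhg15, Snhg17), at 24 h (Gas5, Snhg5) and in naive (Zfas1, Epb41l4aos).

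Of 14 other widely studied lncRNAs 5 passed the filter. Mir22hg, the host of the microRNA miR-22, rose 2.53-fold at 2 h, from 10.4 ± 1.06 RPKM (SD, n = 4) to 26.4 ± 5.76 RPKM (SD, n = 4, log2 fold change 1.24, limma adjusted p = 0.000118), and was below naive at 24 h (-0.47, adjusted p = 0.0225). Firre and Kcnq1ot1 fell at 24 h against naive (-0.33 and -0.36) and against 2 h (-0.32 and -0.45), all their 24 h libraries below all others. For Kcnq1ot1 the margin was narrow, with the highest 24 h library at 1.0630 RPKM and the lowest 2 h library at 1.0636 RPKM. Tug1 passed in none of the comparisons on RPKM as deposited (-0.10, -0.13 and -0.02). Of all genes tested, 14.7% were higher at 2 h and 20.6% lower at 24 h against naive. At 24 h against 2 h 21.5% were lower. Of the 5, 1 rose at 2 h, 3 fell at 24 h against naive and 4 fell at 24 h against 2 h. Under other scalings 2 rose at 2 h with quantile normalisation and with voom on recovered reads. At 24 h against naive 4 fell with median-ratio scaling and with quantile normalisation, and all 5, Tug1 among them, fell with voom.

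**Figure D3:**
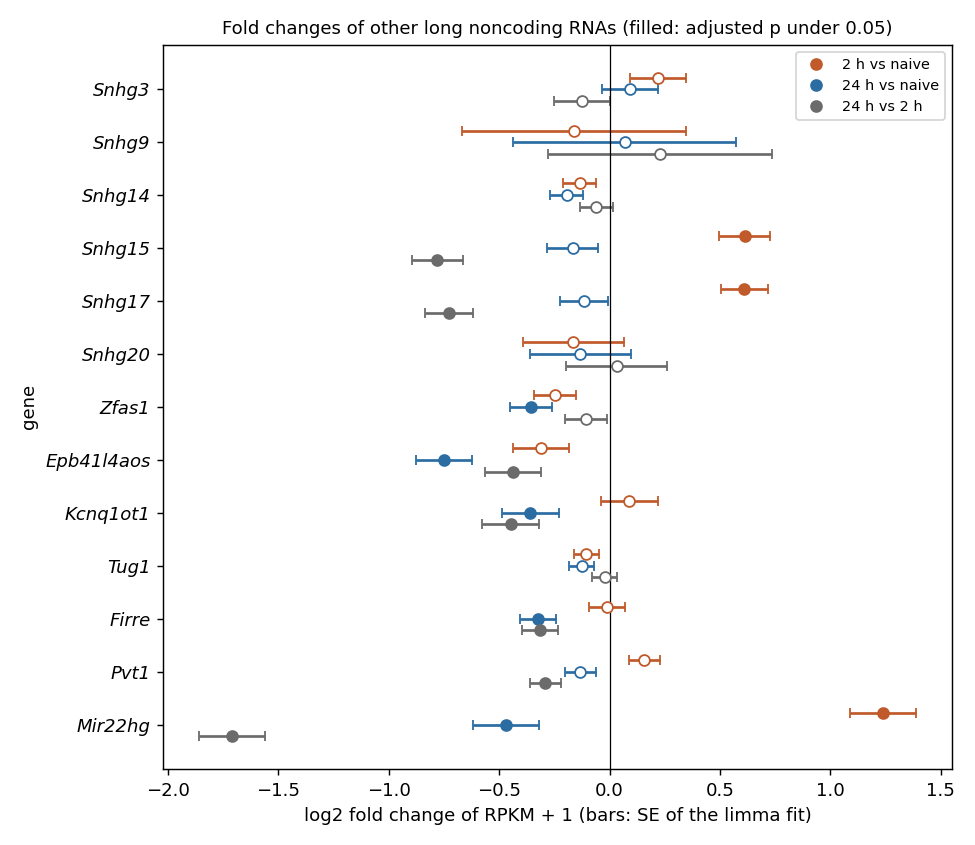
Fold changes on the log2(RPKM + 1) scale (horizontal axis) of 8 other snoRNA hosts and 5 other long noncoding RNAs (vertical axis) in the 3 comparisons (colours), with bars of 1 SE and filled points for an adjusted p under 0.05. Snhg15, Snhg17 and Mir22hg are to the right of 0 at 2 h and to the left of 0 at 24 h against 2 h.

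The proteins that work with these RNAs were read from lists. Beside their counts, 14.7% of all genes tested were higher and 22% lower at 2 h, and 25.3% higher and 20.6% lower at 24 h against naive, with medians of -0.04 and 0.00. From 2 h to 24 h 30.9% were higher and 21.5% lower. Of 16 genes of paraspeckle proteins 6 rose and 6 fell at 2 h, with a median of -0.03. Nono (-0.26, limma adjusted p = 0.00114), Sfpq (-0.26, adjusted p = 0.0278) and Rbm14 (-0.68, adjusted p = 0.00418) fell at 2 h. Nono and Sfpq are core proteins bound to Neat1, and Rbm14 is needed for paraspeckles to form. Pspc1 (0.41, limma adjusted p = 0.0149), an RNA-binding protein of the same bodies, rose. With median-ratio scaling 6 rose and 3 fell, and the median was 0.02.

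Of the 16, 12 rose at 24 h against naive and 0 fell, with a median of 0.31 beside 0.00 for all genes tested. Pspc1 rose 2.22-fold, from 3.22 ± 0.082 RPKM (SD, n = 4) to 7.14 ± 0.98 RPKM (SD, n = 4, log2 fold change 0.94, limma adjusted p = 4.09e-05), Rbmx by 0.68, Nono by 0.33 and Sfpq by 0.22. From 2 h to 24 h 10 rose and 0 fell. Under the other scalings 11 or 12 rose at 24 h against naive, and 0 fell.

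Of 18 nuclear speckle genes 9 rose and 3 fell at 2 h, and 9 rose and 4 fell at 24 h against naive, with medians of 0.13 and 0.19. U2af1, a splicing factor that reads the 3′ splice site, rose at both times (0.56 and 0.77, limma adjusted p = 0.00039 and 1.41e-05). Clk1, a kinase of splicing factors, fell at both (-0.61 and -0.71). Srsf1, an SR splicing factor, fell at 2 h (-0.40) and rose at 24 h (0.49). From 2 h to 24 h 6 rose and 5 fell.

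Of 17 genes of snoRNA-binding proteins and their assembly factors 7 rose and 0 fell at 2 h, and 13 rose and 0 fell at 24 h against naive, with medians of 0.14 and 0.52 beside -0.04 and 0.00 for all genes tested. Fbl, the methyltransferase of box C/D particles, rose at both times (0.37 and 0.52, limma adjusted p = 0.00807 and 0.000597), as did Nop56 (0.42 and 0.58) and Nop58 (0.48 and 0.60), its partners. Dkc1, the pseudouridine synthase of box H/ACA particles, was at 0.14 at 2 h (adjusted p = 0.267) and rose at 24 h (0.59, adjusted p = 0.000301). Nhp2, another box H/ACA protein, rose 1.97-fold at 24 h, from 17.3 ± 2.02 RPKM (SD, n = 4) to 34.1 ± 2.30 RPKM (SD, n = 4). Between the time points 8 rose, led by Ruvbl1, an assembly ATPase (0.80), and 2 fell, Naf1 (-0.30) and Nufip1 (-0.31), both assembly factors. With equal totals 1 of the 17 fell at 2 h.

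Of 10 nonsense-mediated decay factors 0 rose and 1 fell at 2 h, and 1 rose and 3 fell at 24 h against naive, with medians of -0.02 and -0.06. Upf3a (-0.32, limma adjusted p = 0.00987) was the one that fell at 2 h. Its paralog Upf3b rose at 24 h (0.42, adjusted p = 0.000301), and the kinase gene Smg1 fell (-0.19, adjusted p = 0.0144). Upf1, the central helicase, passed at neither time (0.04 and 0.01). Between the time points 2 rose and 2 fell.

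Of 25 protein-coding snoRNA hosts 5 rose and 1 fell at 2 h, and 12 rose and 4 fell at 24 h against naive, with medians of 0.02 and 0.09. Eif4a1, a translation initiation helicase, rose at both (0.53 and 0.49), and Ncl, the gene of nucleolin, did too (0.46 and 0.68). Hspa8, a chaperone gene, fell at 2 h (-1.24, limma adjusted p = 0.0117). Rpl10 and Tpt1 fell at 24 h (-0.40 and -0.51). Between the time points 9 rose and 4 fell, and with median-ratio scaling 5 rose and 4 fell.

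A list of 17 genes, mostly of translation, was taken as 5′ TOP genes, and their starts were not examined here. Of the 17, 1 rose and 0 fell at 2 h, and 5 rose and 4 fell at 24 h against naive, with medians of 0.03 and 0.01. The gene that rose at 2 h was Hnrnpa1, an RNA-binding protein gene (0.59, limma adjusted p = 0.000154, and 1.08 at 24 h). Eef1g, an elongation factor subunit, rose at 24 h (0.85), and Tpt1 and Eif3f fell (-0.51 and -0.27). Between the time points 5 rose and 4 fell, with 3 and 7 under median-ratio scaling.

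**Figure D4:**
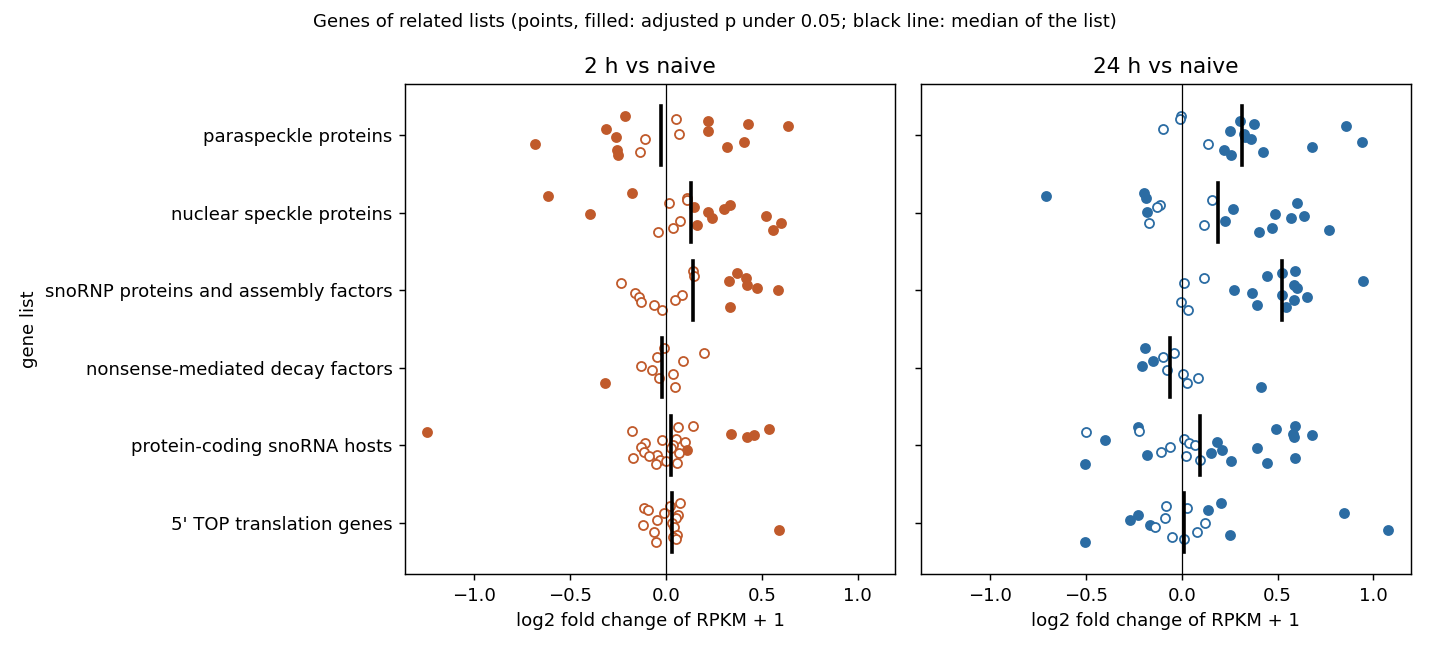
Fold changes on the log2(RPKM + 1) scale (horizontal axes) of each gene in 6 lists (vertical axis) at 2 h (left) and 24 h (right) against naive, filled where the adjusted p was under 0.05, with a black line at the median of each list. At 24 h the medians of the paraspeckle and snoRNP lists are at 0.31 and 0.52, and those of the nonsense-mediated decay and 5′ TOP lists at -0.06 and 0.01.

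For each RNA the 3 tested genes whose log2 values tracked it most closely over the 12 libraries were taken by Pearson's r, as a description, since the libraries share groups. Genes without a symbol or with a predicted, pseudogene or clone name (such as Gm with digits or ending in Rik) were left out of this ranking. For Malat1 these were Mtm1 (r = 0.964), Lrrfip1 (0.962) and Tgfbr1 (0.960). For Neat1 they were Zfp672 (0.939), Rap2b (0.934) and Arhgef18 (0.930). For Gas5 they were Amz2 (0.906), Ptpn7 (0.894) and Hnrnpu (0.879), and for Snhg5 Kif2a (0.909), Uba3 (0.907) and Clns1a (0.891). The closest for Snhg12 were Rptor (0.885), Anpep (0.847) and Tulp4 (0.841), and for Snhg6 Ate1 (0.825), Snord49a (0.808) and Snhg20 (0.742), another snoRNA host.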

How the data were processed

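RNA of 12 libraries was isolated with the PicoPure kit, per the labels' protocols, and polyadenylated RNA was sequenced. The authors deposited RPKM values per Ensembl gene. bcl2fastq, TopHat2, HTSeq and mm10 are named in the submitters' processing notes. Not given in the sources used here are versions, strand use and the length definition. RPKM values fell on steps of whole reads for 11417 of 11419 tested genes (within 0.02 of a read), which gave library totals and gene lengths. These lengths equalled the summed transcript lengths for 56.1% of tested genes and the exon union for 16.3%.

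Genes that reached an RPKM of 1 in 4 or more libraries were tested with limma 3.58.1 (R 4.3.3) on log2(RPKM + 1), over all 12 libraries with a variance trend, two-sided, with Benjamini-Hochberg adjustment over 11419 genes. This scale understates changes of low genes; folds are ratios of mean RPKM. The labels do not tie libraries to animals, and p-values cover the spread between libraries, which may be technical. Steps were tested on simulated data. Sequences and annotation are GENCODE. Named are the members, the 3 genes most like each (predicted and clone names left out), nearest coding genes, nested snoRNAs and up to 4 genes per list by p. Sfpq, Nop58, Upf1, Hspa8, Gm37376 and H2-Ea-ps lie outside that rule and were chosen after their values were seen. A few genes named by this rule are not reported here. The members and lists were chosen with earlier results of these data known.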

Additional observations from a re-analysis of the deposited data

How the results depend on the processing

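The fits were repeated with other pseudocounts, filters, scalings and variance models, voom on recovered reads, only the compared groups, a block for the replicate number, and without each library in turn. The falls of Malat1 (24 h against naive and against 2 h) and Neat1 (2 h) and the rise of Snhg5 (24 h against naive) kept direction and call in every one of these that tested them. No called value changed sign. Values near 0 that did not pass did, when single libraries were left out: Gas5 at 2 h (-0.05 to 0.08), Snhg6 at 2 h (-0.11 to 0.10), at 24 h against naive (-0.05 to 0.11) and against 2 h (-0.07 to 0.13), and Snhg12 at 24 h against naive (-0.05 to 0.08). Members called at 2 h were 1 with no filter, 1 with a filter at 5 RPKM (which leaves Malat1 and Neat1 as the members tested) and 1 with the replicate block, and 1 to 2 without a library. At 24 h against naive the filter at 5 RPKM left 1 and the compared groups alone gave 3. At 24 h against 2 h no filter and the replicate block gave 1 each, voom on recovered reads gave 3, and leaving out a library 1 to 3 (3 without 2 h replicate 3). With the filter at 5 RPKM 2669 genes were called at 2 h and 3923 at 24 h against 2 h, with 6467 tested. Over all genes, deviations of same-numbered libraries correlated at -0.04 to 0.05. A library was closest to its own number in 1, 2 and 0 of 4 cases, and the block gave 4020, 5107 and 5877 called genes. Library totals were lower in replicate 4 than in replicate 1 of naive (6112586 against 8796071), 2 h (7242824 against 10282226) and 24 h (9129420 against 11997945). These values do not settle whether the numbers stand for a pairing or an order of handling. Snhg12 and Snhg6 rest on under 100 reads per library.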
